A study of Danio rerio with 25 samples.

Results

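The muscle miRNAs of zebrafish brain libraries are the 6 that the deposited count table lists as dre-mir-1, dre-mir-133a, dre-mir-133b, dre-mir-133c, dre-mir-206 and dre-mir-499, called miR-1 and so on here. They were chosen by name alone and take up 9 of 346 hairpin rows, since miR-1, miR-133a and miR-206 have 2 numbered copies each. With copies summed they are 6 of 217 miRNAs. The 25 small RNA libraries come from samples labelled as brain of male Danio rerio, 5 for each age of 6, 12, 24, 36 and 42 months. All fish carried the AB JxTü background. Fish of 6 and 24 months have no transgene named, those of 12 months carried Tg(flk:mCherry), those of 36 months Tg(pu.1:GFP) and those of 42 months Tg(wt1a:GFP), transgenes named for an endothelial, a myeloid and a Wilms tumour gene. Line and age therefore cannot be told apart, except at 24 against 6 months. Each 6-month title has a pair of numbers where other titles have 1, and the labels do not say whether fish were pooled.

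These miRNAs are known as the muscle or myomiR group. In vertebrates miR-1 and miR-133 are made together from shared loci in heart and skeletal muscle, where miR-1 favours differentiation of muscle cells and miR-133 restrains serum response factor. miR-206 has the seed of miR-1 and is made mainly in skeletal muscle, and miR-499 lies in an intron of a myosin heavy chain gene and is made in heart and slow muscle. In nervous tissue they are usually scarce, although miR-133b is known from dopaminergic neurons of the mouse midbrain and from repair of the zebrafish spinal cord. In the RefSeq annotation of the assembly GRCz12tu, used here for names and neighbours only, mir1-1 has mir133a-2 as its nearest miRNA gene and mir1-2 has mir133a-1. The nearest miRNA gene of mir133b is mir206-1, and that of mir133c is mir206-2. The gene of miR-499, named mir499a there, lies within myh7ba. Both mir1-2 and mir133a-1 lie within mib1, and both mir133c and mir206-2 within plaat1l.

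The libraries hold 3983783 to 20924118 counts each, with a median of 7303502. The brain label was checked against the miRNAs miR-9, miR-124, miR-128 and miR-138, which are typical of neurons: all 4 were found in every library and together made up 116853 to 163438 of every 1000000 counts of a library (counts per 1000000 are written CPM). The muscle miRNAs together made up a median of 0.113% of a library, between 0.0887% and 0.254%. In bulk RNA of this kind, fewer cells of a type and less RNA per cell cannot be told apart.

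miR-133a was by far the most abundant member. Over the 25 libraries it averaged 1122 ± 263 CPM (SD, n = 25; here and below CPM are counts scaled by the library total adjusted with edgeR's TMM factors), rank 74 of 217 miRNAs. It was followed by miR-1 at 52.3 ± 11.2 CPM (rank 156), miR-499 at 29.2 ± 33.1 (rank 167), miR-133b at 15.5 ± 8.91 (rank 171), miR-206 at 6.42 ± 12.4 (rank 181) and miR-133c at 2.79 ± 5.62 (rank 189). miR-133a alone held between 84.9% and 94.3% of the counts of the group in each library. CPM count reads per hairpin, so that the arms of a hairpin cannot be told apart, and are not divided by hairpin length. Differences in adapter ligation between miRNAs were not measured, so that levels of different miRNAs are compared only as reads.

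The group fell into a steady pair and a variable set. Across all 25 libraries the highest level of miR-1 was 2.37 times the lowest, and that of miR-133a 2.31 times. The same ratio was 5.16 for miR-133b, 14.8 for miR-499, 128.1 for miR-206 and 183 for miR-133c. The coefficients of variation of miR-1 (21.4%) and miR-133a (23.5%) lay near the median of the 197 tested miRNAs (21.4%). That of miR-133c was 202%, with 2 tested miRNAs above it, and that of miR-206 was 192%, with 6 above it. miR-499 (114%, with 21 above it) and miR-133b (57.3%, with 36 above it) lay between. Counting error weighs more on scarce miRNAs, and the lowest libraries held 2 counts of miR-133c and 6 of miR-206. Its part in these coefficients was not tested.

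The highest levels of these 4 members were in the same libraries, 6-month replicate 2 and 12-month replicate 4. Without them the coefficients of variation were 84.4% for miR-133c, 85.7% for miR-206, 39.1% for miR-499 and 20.3% for miR-133b, with a median of 19.8% over the tested miRNAs. Those of miR-1 and miR-133a were then 17.9% and 15.3%, so that miR-133b lay near this pair and near the median. miR-206, the skeletal muscle member, stood at 3.40, 55.1, 3.90, 1.45 and 12.3 CPM in 6-month replicates 1 to 5. At 12 months its levels were 1.36, 1.51, 1.95, 36.2 and 1.70 CPM. Replicate 2 of the younger and replicate 4 of the older group were therefore far above the rest of their age, and 6-month replicate 5 was the next highest of all 25. miR-206 was 5.27, 7.23, 2.65, 3.23 and 1.61 CPM at 24 months, 1.15, 4.41, 1.03, 3.73 and 2.01 at 36 months, and 3.37, 1.48, 2.98, 0.430 and 1.12 at 42 months. No library of these later ages came near the 2 high ones. The lowest of all, 42-month replicate 4, rests on 6 counts, for which 95% exact Poisson limits are 0.158 to 0.935 CPM. Such limits cover counting error only.

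miR-133c, whose gene is the neighbour of mir206-2, showed the same libraries. It was 2.88, 26.2, 0.820, 1.45 and 5.12 CPM in the 5 libraries of 6 months and 0.555, 0.550, 1.66, 14.3 and 0.464 CPM in those of 12 months. In the other 15 libraries it lay between 0.143 and 2.42 CPM. The 2 high values rest on 238 and 110 counts, whereas in the remaining 23 libraries the levels come from few reads, as few as 2 in 42-month replicate 4.

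miR-499, the myosin-linked member, was 21.4, 123, 15.4, 16.6 and 28.6 CPM at 6 months and 12.5, 10.6, 18.3, 148 and 14.2 CPM at 12 months. Its highest library was thus 12-month replicate 4, whereas miR-206 and miR-133c were highest in 6-month replicate 2. At 24 months it was 10.01, 35.6, 13.1, 18.3 and 16.1 CPM, at 36 months 22.3, 29.7, 19.2, 14.0 and 13.2, and at 42 months 37.6, 18.4, 28.4, 16.8 and 27.4. Apart from the 2 high libraries the 5 ages overlapped.

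**Figure D1:**
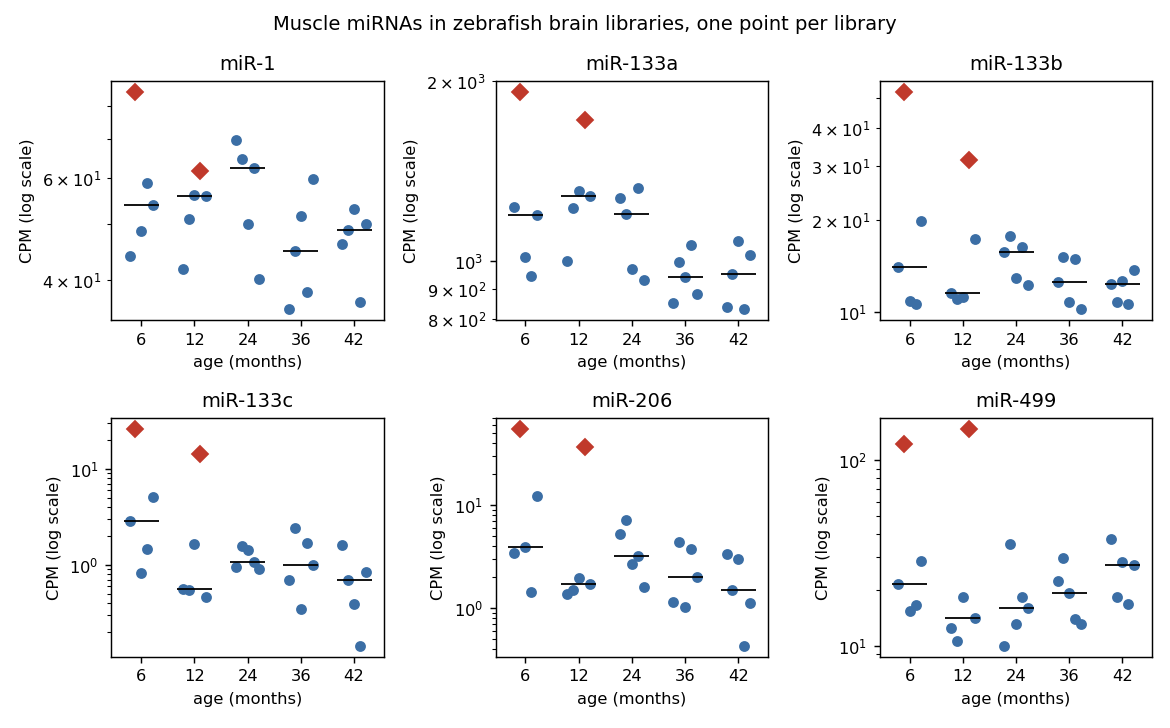
Level of each muscle miRNA in CPM (log axis) against age in months, with 1 point per library, n = 5 per age, and a bar at the median. Red diamonds mark 6-month replicate 2 and 12-month replicate 4, which reach 55.1 and 36.2 CPM of miR-206 while the other 23 libraries lie between 0.430 and 12.3 CPM.

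miR-133a, which makes up nearly the whole group, moved far less. Its levels were 1233, 1919, 1017, 946 and 1196 CPM at 6 months and 1002, 1228, 1309, 1725 and 1286 CPM at 12 months. The same 2 libraries were again the highest of the 25, but by a smaller factor. It was 1277, 1200.1, 970.0, 1326 and 932 CPM at 24 months, 852, 999, 941, 1065 and 882 at 36 months and 841, 952, 1081, 832 and 1026 at 42 months. The highest library of 36 and 42 months (1081 CPM) was below 3 libraries of 6 months, 4 of 12 and 3 of 24 months, yet the ranges of all ages overlapped.

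miR-1, which shares its loci with miR-133a, lay between 35.6 and 84.6 CPM in all libraries. It was highest in 6-month replicate 2 (84.6 CPM), while 12-month replicate 4 (61.7 CPM) was rank 5 of 25, below 3 libraries of 24 months. miR-133b was 52.5 CPM in 6-month replicate 2 and 31.5 in 12-month replicate 4, and between 10.2 and 19.8 CPM in the other 23 libraries.

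Set against the median of the other 4 libraries of its age, 6-month replicate 2 was higher by 1.65-fold in miR-1, 1.73-fold in miR-133a, 4.23-fold in miR-133b, 6.48-fold in miR-499, 12.1-fold in miR-133c and 15.1-fold in miR-206. For 12-month replicate 4 the folds were 1.15, 1.37, 2.78, 11.1, 25.8 and 22.5 in the same order. In both libraries the factors were largest for the scarce members and smallest for miR-1 and miR-133a. In CPM the order differed: miR-133a was higher by 813 and 468 CPM, miR-499 by 104.1 and 135, miR-206 by 51.4 and 34.5, miR-133b by 40.1 and 20.2, miR-133c by 24.0 and 13.7, and miR-1 by 33.3 and 8.25 CPM. Thus miR-206, the scarcer of the pair that shares a seed, exceeded its age by more CPM than miR-1 did in both. These are descriptions of single libraries, with no test.

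**Figure D2:**
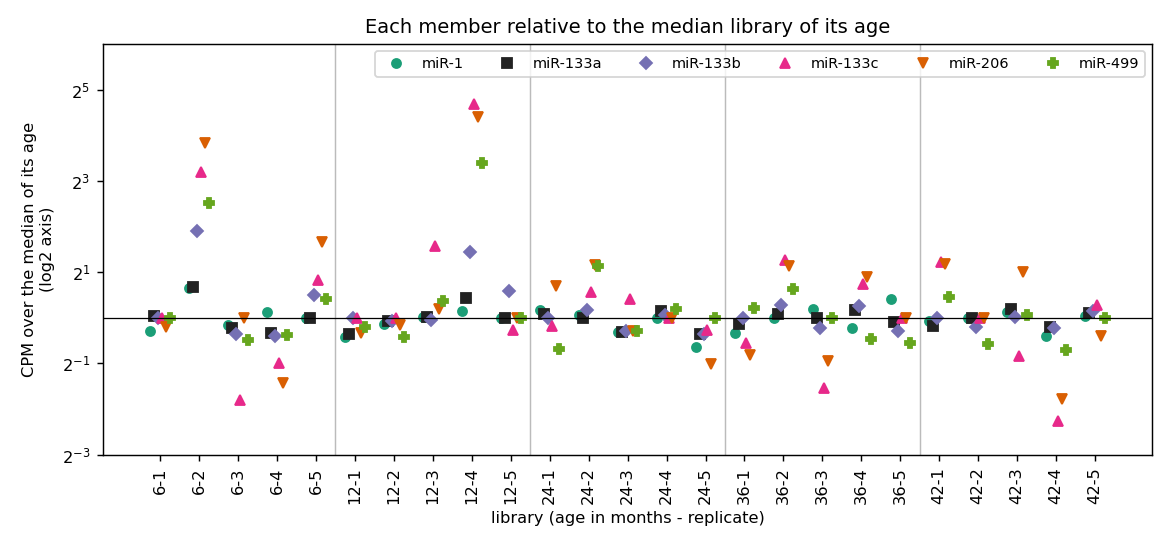
CPM of each member divided by its median over the 5 libraries of the same age (log2 axis), for the 25 libraries in order of age and replicate. miR-206, miR-133c and miR-499 stand far above 1 in 6-month replicate 2 and 12-month replicate 4, whereas miR-1 and miR-133a stand nearer to 1 there.

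miRNAs of several other tissues were also high in these libraries, in part in 1 of them only. All list sums are CPM of library total, whereas the levels of miR-206 beside them are TMM-adjusted. The skin list (miR-203a, miR-203b and miR-205, all 3 found, none at 0 in any library) summed to 3861 CPM of library total in 6-month replicate 2 and 5185 in 12-month replicate 4, the highest of their ages. Over all libraries its range was 488 to 3861 CPM at 6 months, 343 to 5185 at 12, 124.2 to 648 at 24, 282 to 1109 at 36 and 57.1 to 471 at 42 months. The mesenchyme list (miR-199 and miR-214, both found, none at 0) was likewise highest in these libraries of each age, at 3718 and 3946 CPM. Its ranges were 877 to 3718, 556 to 3946, 478 to 1045, 473 to 1756 and 367 to 721 CPM from the youngest to the oldest age. The red blood cell list (miR-144 and miR-451, both found, none at 0) was also highest there within each age, at 2711 and 1046 CPM, with ranges of 1299 to 2711, 506 to 1046, 526 to 1259, 319 to 1506 and 584 to 872 CPM. The smooth muscle list (miR-143 and miR-145, both found, none at 0) was at 18355 CPM in 6-month replicate 2, the highest of its age, and at 11863 CPM in 12-month replicate 4, inside the range of the other libraries of 12 months (10060.0 to 19508 CPM). The epithelium list (miR-141, the miR-200 group and miR-429, all 6 found, none at 0) was at 2900 CPM in 12-month replicate 4, against 141 to 590 CPM in the other libraries of that age, and at 1301 CPM in 6-month replicate 2, inside the range of its age. The sensory cell list (miR-96, miR-182 and miR-183, all 3 found, none at 0) likewise was at 6892 CPM in 12-month replicate 4, against 2072 to 3301 CPM, and at 7127 CPM in 6-month replicate 2, inside the range of its age (2929 to 21516 CPM). In 6-month replicate 2 alone, the pancreas and endocrine list (miR-216a, miR-216b, miR-217 and miR-375, all 4 found, none at 0) and the endothelium list (miR-126a and miR-126b, both found, none at 0) were the highest of all 25, at 3238 and 7866 CPM. In 12-month replicate 4 they were at 1212 and 5089 CPM. The neuron list was lowest of each age in the 2 libraries that stand apart, at 119174 and 123179 CPM against 128918 to 135026 and 138120 to 160042 CPM in the other libraries of 6 and 12 months. The skin list was at 2125 and 2317 CPM in 12-month replicates 3 and 5, which had 1.95 and 1.70 CPM of miR-206. The libraries richest in epithelial miRNAs were 6-month replicate 1, 36-month replicate 1 and 6-month replicate 5, at 9033, 8123 and 8107 CPM, and held 3.40, 1.15 and 12.3 CPM of miR-206. The epithelium list ranged from 472 to 9033 CPM at 6 months, 141 to 2900 at 12, 90.1 to 348 at 24, 135 to 8123 at 36 and 71.9 to 462 at 42 months. The part of other tissue in the levels of the muscle miRNAs was not tested. The table holds miRNAs alone, so that no muscle mRNA could be examined, and the heart miRNA miR-208 is not among its names.

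Ratios of counts within a library do not depend on scaling. miR-133a held 21.7 ± 3.43 counts for each count of miR-1 (SD, n = 25, range 14.8 to 28.1), and its mean ratio ran from 20.1 at 24 months to 24.5 at 12 months. This ratio was 22.7 in 6-month replicate 2 and 28.0 in 12-month replicate 4, inside the range of the other libraries of all ages. Within 12 months replicate 4 was above the other libraries, which lay between 23.0 and 24.1. miR-206 stood at 0.651 and 0.586 counts per count of miR-1 in 6-month replicate 2 and 12-month replicate 4. It lay between 0.0117 and 0.228 in the other 23. miR-499 stood at 1.46 and 2.41 counts per count of miR-1, against 0.143 to 0.814 elsewhere, so that only there did it outnumber miR-1. The ratio of miR-206 to miR-133c was 2.10 and 2.54, close to its median of 2.22 over all libraries (range 1.00 to 7.67).

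The 3 forms of miR-133 have nearly identical mature sequences and can take each other's reads, to an extent these counts cannot show. miR-133b stood at 0.0274 and 0.0183 counts per count of miR-133a in 6-month replicate 2 and 12-month replicate 4, and at 0.00851 to 0.0165 in the other libraries. Over these 23 libraries r of age-centred log2 CPM between miR-133a and miR-133b was 0.738, given as a description. miR-133c stood at 0.499 and 0.453 counts per count of miR-133b in the high libraries, and between 0.0135 and 0.259 elsewhere.

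**Figure D3:**
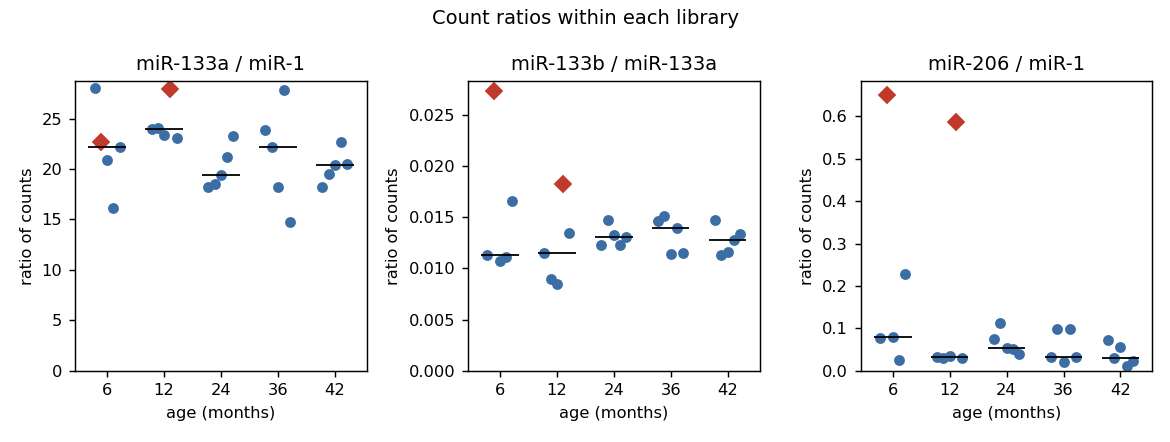
Ratios of counts within each library against age in months, with a bar at the median of 5 libraries. Red diamonds mark 6-month replicate 2 and 12-month replicate 4, which stand above the other 23 libraries in miR-206 over miR-1 (0.651 and 0.586) and in miR-133b over miR-133a. In miR-133a over miR-1 they lie inside the range of the other 23. There 12-month replicate 4 (28.0) was still above the other libraries of its age (23.0 to 24.1).

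The copies of a name differed in how evenly they were counted. For miR-133a copy 1 took 50.1% of 231170 counts (Wilson 95% limits 49.8% to 50.3%), and its share lay between 49.3% and 51.1% in each library. miR-1 copy 1 took 49.0% (48.1% to 50.0%). miR-206 was uneven: copy 1, the neighbour of mir133b, took 65.3% (62.6% to 67.9%) of the counts and was the higher copy in 23 of 25 libraries, with 1 tied. Of its 1265 counts, 500 came from 6-month replicate 2 and 279 from 12-month replicate 4, and its copy 1 share ran from 33.3% to 100% in single libraries. The Wilson limits pool the counts of all libraries and do not measure the spread between libraries. In 6-month replicate 2 the copies of miR-206 held 329 and 171 counts and in 12-month replicate 4 they held 170 and 109. miR-133b and miR-133c, the neighbours of these copies, held 477 and 238 counts in the former library and 243 and 110 in the latter. The ratio of miR-133c to miR-133b was at most 0.499 over the 25 libraries, also where copy 1 of miR-206 was not the higher. In 42-month replicate 4 the copies of miR-206 held 2 and 4 counts, beside 148 counts of miR-133b and 2 of miR-133c. Reads that match both copies may have been divided between them by a rule that the sources used here do not give.

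Of the other members, miR-133a had the highest correlation with miR-1 from library to library. On log2 CPM it followed miR-1 over the 25 libraries (Pearson r = 0.773, permutation p 2.00e-05, adjusted over 5 relations 1.00e-04; Spearman rho = 0.738, p 9.00e-05, adjusted 4.50e-04). Without the 2 libraries farthest from the median of miR-1, r was 0.631 (permutation p 0.00135), and with each age centred on its own mean it was 0.738 (permutation p 0.00127, adjusted 0.00635). Without 6-month replicate 2 and 12-month replicate 4 it was 0.646 (n = 23, permutation p 0.00102, adjusted 0.00510), and 0.603 with ages centred (permutation p 0.0137, adjusted 0.0685). With all 25 libraries the other 4 members passed too, at r = 0.668 for miR-206 (permutation p 2.10e-04, adjusted 5.25e-04) and 0.662 for miR-133b (p 4.50e-04, adjusted 7.50e-04). For miR-133c r was 0.575 (p 0.00309, adjusted 0.00386) and for miR-499 0.465 (p 0.0229, adjusted 0.0229). By Spearman's rho these last 2 did not pass (adjusted p 0.117 and 0.293). In all 4 the same 2 libraries stand apart, and leaving them out was chosen after seeing the data. Over the other 23 libraries r was 0.459 for miR-206 (permutation p 0.0274, adjusted 0.0685; rho 0.415, p 0.0498), 0.383 for miR-133b (permutation p 0.0694, adjusted 0.116; rho 0.345, p 0.108), 0.250 for miR-133c (permutation p 0.252, adjusted 0.315; rho 0.168, p 0.444) and 0.0372 for miR-499 (permutation p 0.866, adjusted 0.866; rho 0.0217, p 0.923). Over these 23 none of the 4 passed after adjustment. Without the 2 libraries farthest from the median of miR-1 as well, they were 0.389, 0.346, 0.210 and 0.0205 in the same order. Without the 7 libraries above 2000 CPM of epithelium or skin miRNAs, no relation with miR-1 passed after adjustment, that of miR-133a included. The libraries share depth and scaling within each point.

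The question put to the 5 ages was whether brain levels of these miRNAs change over adult life. The summed group averaged 1405 ± 495 CPM in the 6-month and 1433 ± 351 CPM in the 12-month libraries (SD, n = 5 each). Its mean was 1237 ± 196 CPM in those of 24 months, and the oldest ages had 1030.0 ± 87.9 CPM (36 months) and 1034 ± 118 CPM (42 months). In that order of levels, from 12 through 6, 24 and 42 to 36 months, the ranges of neighbouring ages overlapped, as they did for each member. The SD was largest at the ages with a library that stands apart: without these libraries the means were 1192 ± 148 (n = 4) at 6 and 1287 ± 150.3 (n = 4) at 12 months.

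All 6 members passed the filter on low counts and were tested with edgeR's quasi-likelihood test on all 25 libraries, with Benjamini-Hochberg adjustment over the 197 tested miRNAs. A linear trend on age called 3 of the 6, all lower with age, beside 21.3% of all miRNAs called and 13.7% called lower. Slopes are in log2 units per year. That of miR-133a was -0.17 (SE 0.04) with an adjusted p of 0.00718, and its means were, from the youngest to the oldest age, 1262 ± 386, 1309.9 ± 262, 1141 ± 179.8, 948 ± 86.5 and 946 ± 110.5 CPM (SD, n = 5 each). miR-133c had a slope of -1.03 (SE 0.25, adjusted p 0.00429) and means of 7.30 ± 10.7, 3.50 ± 6.03, 1.19 ± 0.306, 1.23 ± 0.828 and 0.737 ± 0.564 CPM. miR-206 had a slope of -0.99 (SE 0.25, adjusted p 0.00681) and means of 15.2 ± 22.7, 8.54 ± 15.4, 3.997 ± 2.24, 2.46 ± 1.53 and 1.88 ± 1.25 CPM. The slopes of miR-133b (-0.26, SE 0.09, adjusted p 0.0534), miR-1 (-0.10, SE 0.05, adjusted p 0.142) and miR-499 (-0.31, SE 0.18, adjusted p 0.2004) were not called. The median slope was -0.28 over the 6 members and -0.01 over all tested miRNAs. In the same fit all 3 skin miRNAs, both mesenchyme miRNAs, both red blood cell miRNAs and 3 of 4 pancreas and endocrine miRNAs were called lower with age, and none of the 4 neuron miRNAs or the 6 epithelial ones was called (the latter were all called lower at 24 and at 42 against 6 months). Of the 2 oligodendrocyte miRNAs 1 was called higher, and none of smooth muscle, endothelium, sensory cells or liver was called. The part of these lists in the trends of the muscle miRNAs was not tested.

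Of these 3 calls, that of miR-133a alone held without 6-month replicate 2 and 12-month replicate 4, a setting chosen after seeing the data. Its slope was then -0.11 (SE 0.04, adjusted p 0.0441). Those of miR-133c and miR-206 went to -0.38 (SE 0.18, adjusted p 0.157) and -0.32 (SE 0.19, adjusted p 0.253), and that of miR-499 to 0.15 (SE 0.09, adjusted p 0.272). Leaving out 6-month replicate 2 alone was enough to end the calls of miR-133c (-0.68, adjusted p 0.0530) and miR-206 (-0.68, adjusted p 0.0640). The 7 libraries above 2000 CPM of epithelium or skin miRNAs include 6-month replicate 2 and 12-month replicate 4. Without all 7, which left 2 libraries at 6 and 2 at 12 months and can end calls by fewer samples alone, no member was called. The slope of miR-133a was then -0.06 (SE 0.05, adjusted p 0.512). Without the 6-month group miR-133a was the only member called (slope -0.20, adjusted p 0.0112), with slopes of -0.81 for miR-133c and -0.87 for miR-206 (adjusted p 0.0780 and 0.0662). Without the 42-month group none was called, although the slopes were -0.20 for miR-133a, -1.09 for miR-133c and -1.07 for miR-206 (adjusted p 0.0665, 0.0665 and 0.0670).

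**Figure D4:**
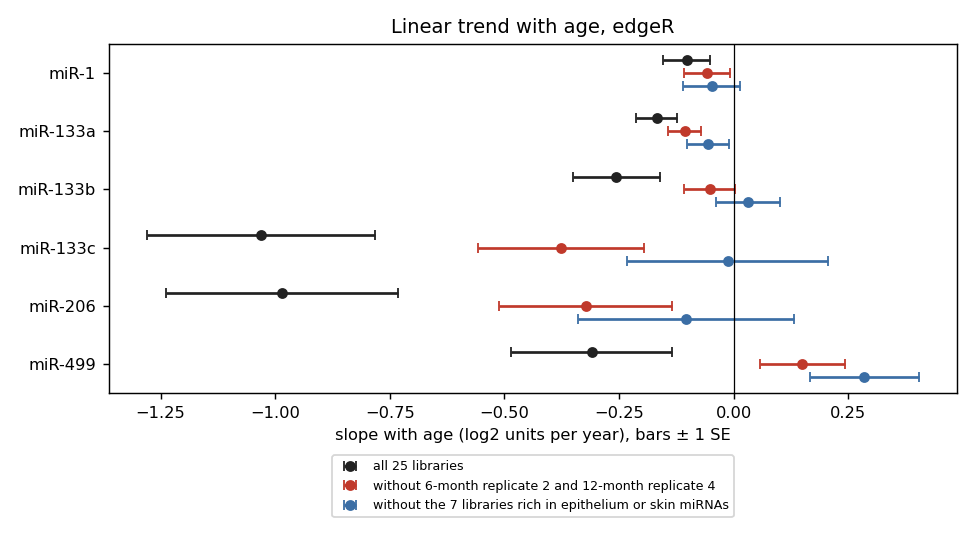
Slope with age of each member in log2 units per year, with bars of 1 SE, in edgeR fits of all 25 libraries (black), of 23 libraries (red) and of the 18 libraries that are not rich in epithelium or skin miRNAs (blue). The slopes of miR-133c and miR-206 go from -1.03 and -0.99 to -0.38 and -0.32 without 6-month replicate 2 and 12-month replicate 4, and that of miR-133a from -0.17 to -0.11.

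Any difference between the 5 ages was called for 2 of the 6 members, miR-133c (adjusted p 0.0254) and miR-133a (adjusted p 0.0440), beside 47.7% of all miRNAs. miR-206 (adjusted p 0.0515), miR-133b (0.214), miR-1 (0.309) and miR-499 (0.335) were not called. Without the 2 libraries that stand apart no member was called, at adjusted p 0.0575 for miR-133a and 0.115 for miR-133c, and 1 of 6 had an unadjusted p under 0.05. With all libraries 3 of 6 did, beside 56.3% of all miRNAs. The call of miR-133a also ended in 15 of 25 fits that left out 1 library, with adjusted p up to 0.0964 without 42-month replicate 1, and that of miR-133c without 6-month replicate 2 (0.141).

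At 24 against 6 months, the pair in which no transgene is named, miR-133c was the only member called (log2 change -2.63, SE 0.98, adjusted p 0.0468), beside 32.0% of all miRNAs and 18.3% called lower. Without 6-month replicate 2 its change was -1.09 (adjusted p 0.372), and leaving out single libraries ended the call in 12 of 25 fits. The abundant members differed little: miR-1 by -0.01 (SE 0.19, adjusted p 0.957) and miR-133a by -0.15 (SE 0.16, adjusted p 0.495). The changes were -1.94 for miR-206 (SE 0.99, adjusted p 0.133), -1.14 for miR-499 (SE 0.68, adjusted p 0.202) and -0.53 for miR-133b (SE 0.36, adjusted p 0.246), none of them called. The median change was -0.84 over the members and 0.04 over all tested miRNAs. Without the 7 libraries rich in epithelium or skin miRNAs all 6 members had a positive change and none was called, with miR-133c at 0.0529 (adjusted p 0.952). In the fit of all libraries all 6 epithelial miRNAs (median change -4.11), all 3 of skin (-2.12), both of mesenchyme (-1.43), both of red blood cells (-1.06) and 3 of 4 of pancreas and endocrine cells (-0.57) were called lower. Of the 2 oligodendrocyte miRNAs 1 was called higher, and none of neurons, smooth muscle, endothelium, sensory cells or liver was called. The part of these lists in the change of miR-133c was not tested. For no member did the 5 libraries of 24 months lie apart from those of 6 months, beside 17.8% of all miRNAs.

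At 42 against 6 months miR-133c (-3.35, SE 1.01, adjusted p 0.0152) and miR-206 (-3.04, SE 1.04, adjusted p 0.0279) were lower, beside 35.5% of all miRNAs called and 21.3% called lower. miR-133a (-0.42, SE 0.16, adjusted p 0.0508), miR-133b (-0.85, SE 0.36, adjusted p 0.0705), miR-1 (-0.31, SE 0.19, adjusted p 0.206) and miR-499 (-0.68, SE 0.68, adjusted p 0.463) were not called. In fits that left out 1 library, miR-133a was called in 6 of 25 and miR-133b in 3. Without the 2 libraries that stand apart miR-133c was still called (-1.82, SE 0.62, adjusted p 0.0348), and miR-206 was not (-1.49, SE 0.61, adjusted p 0.0729). Without 6-month replicate 2 alone neither was called, at -1.81 (adjusted p 0.140) and -1.48 (adjusted p 0.235), and the call of miR-206 also ended without 42-month replicate 2, 4 or 5. Without the 7 libraries rich in epithelium or skin miRNAs no member was called, and the changes of miR-133c and miR-206 were -0.64 and -0.52 (adjusted p 0.625 and 0.683). In the fit of all libraries all 6 epithelial miRNAs (median change -4.48), all 3 of skin (-2.54), all 3 of sensory cells (-2.64), both of mesenchyme (-1.79), both of red blood cells (-1.36) and 3 of 4 of pancreas and endocrine cells (-0.68) were called lower. Called higher were 1 of 4 neuron miRNAs, 1 of 2 oligodendrocyte miRNAs and the liver miRNA (2.73), and none of smooth muscle or endothelium was called. The part of these lists in the changes of miR-133c and miR-206 was not tested. Ranges overlapped for all 6 members, beside 26.9% of all miRNAs whose ranges did not.

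At 36 against 6 months edgeR called 0 of 6, beside 15.7% of all miRNAs, although 4 had an unadjusted p under 0.05, beside 34.0% of all. The changes were -2.66 for miR-206 (SE 1.02, adjusted p 0.0805), -2.64 for miR-133c (SE 0.98, adjusted p 0.0707), -0.41 for miR-133a (SE 0.16, adjusted p 0.0820), -0.77 for miR-133b (SE 0.36, adjusted p 0.135), -1.06 for miR-499 (adjusted p 0.264) and -0.33 for miR-1 (adjusted p 0.207). DESeq2 called miR-206 and miR-133c there, and limma-voom none. Without 12-month replicate 4, which enters through the shared spread, edgeR called the same pair (adjusted p 0.0192 for each). Without both libraries that stand apart the changes were -1.11 for miR-206 and -1.12 for miR-133c (adjusted p 0.229 for each), not called. Without the 7 libraries rich in epithelium or skin miRNAs they were 0.0530 and 0.21, not called. Of the 25 fits that left out 1 library, miR-206 was called in 1, miR-133c in 2 and miR-133a in 1 (adjusted p 0.0477). Over the 25 fits that left out 1 library, 23 to 47 of all miRNAs were called at 36 against 6 months. Ranges overlapped for all 6, beside 11.7% of all miRNAs whose ranges did not.

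At 12 against 6 months edgeR called 0 of 6, beside 14.2% of all miRNAs, and 0 of 6 had an unadjusted p under 0.05, beside 35.5% of all. Neither DESeq2 nor limma-voom called any. Each of these ages holds 1 of the libraries that stand apart. Changes ran from -1.09 for miR-133c (SE 0.90, adjusted p 0.378) to 0.05 for miR-133a (SE 0.16, adjusted p 0.841). Without 12-month replicate 4 miR-206 (-3.23, adjusted p 0.0147), miR-133c (-3.16, adjusted p 0.0147) and miR-499 (-1.57, adjusted p 0.0321) were called lower. Over the 25 fits that left out 1 library, 19 to 66 of all miRNAs were called at 12 against 6 months. Without 6-month replicate 2 the changes of miR-206 (0.69), miR-133c (0.43) and miR-499 (0.98) had the other sign and were not called. Each of these fits keeps the library that stands apart at the other age. Without both libraries the changes were -1.67 for miR-206 (adjusted p 0.0653), -1.62 for miR-133c (0.0694) and -0.56 for miR-499 (0.255), none of them called. Ranges overlapped for all 6 members, beside 13.7% of all miRNAs whose ranges did not. These 4 comparisons share the 6-month libraries.

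miRNAs outside the group that are known from muscle differentiation were counted in a list of 24, of which 21 are in the table and were tested. Of these, 4 had a rising and 4 a falling trend with age, beside 7.61% of all miRNAs called higher and 13.7% called lower, and the median slope was -0.003, beside -0.01 over all tested miRNAs. The list summed to between 369498 and 460119 CPM of library total, and its members differ widely in level, with miR-214 at a mean of 33.7 CPM. In the order of the list, those that rose were miR-26a (0.05 per year, adjusted p 0.0232), miR-26b (0.12, adjusted p 6.50e-04), miR-29a (0.22, adjusted p 8.51e-05) and miR-29b (0.45, adjusted p 1.83e-05). Those that fell were miR-27a (-0.26, adjusted p 0.0361), miR-30c (-0.13, adjusted p 7.16e-04), miR-199 (-0.53, adjusted p 0.00450) and miR-214 (-0.51, adjusted p 0.00271), of which miR-214 is known to shape slow muscle fate in zebrafish embryos.

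The 5 tested miRNAs outside the group whose pattern was most like that of the summed group were ranked by Pearson's r of log2 CPM centred on the mean of each age, over the 25 libraries. They were miR-27a (r = 0.845), miR-23a (0.763), miR-27c (0.748), the skin miRNA miR-203a (0.741) and miR-460 (0.717). Without 6-month replicate 2 and 12-month replicate 4 these were 0.721, 0.492, 0.403, 0.593 and 0.432. miR-27a was at 233 and 364 CPM in these libraries, against a median of 97.3 CPM in the other 23. miR-203a was at 190.4 and 241 CPM against 19.4. The points share depth and scaling, the members were weighted by their abundance, and the values are descriptions with no test.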

How the data were processed

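Raw counts of reads per miRNA hairpin in 25 brain libraries (5 per age) were deposited by the authors in 1 table, checked to be whole numbers, with 0 count columns left unused. Per the submitters' processing notes, the tools included Trimmomatic 0.36 and BWA 0.7.12-r1039, besides SAMtools 1.3.1-9 and CASAVA 1.8.4. Per the labels' protocols the libraries were made with the Illumina TruSeq small RNA kit. For the genome build, annotation, counter and reads with several matches, the entry is: not given in the sources used here. Mature sequences were not used here.

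Copies were summed by name. filterByExpr (count minimum 10, total minimum 15) kept 197 of 217 miRNAs. Tests used R 4.3.3 with edgeR 4.0.16 (TMM, robust quasi-likelihood fit of all 25 libraries), called at an adjusted p under 0.05, with SEs approximated from the F statistic. DESeq2 1.42.0 and limma 3.58.1 (voom) served as alternatives. Correlations used log2 CPM (library total, prior count 2) and 100000 two-sided permutations in Python 3.11.15. Named are all members, the 5 most similar miRNAs, and listed miRNAs.

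Libraries were grouped by age. Replicates are numbered in order of deposit and pair nothing. Whether they are separate animals is not stated, and p-values then reflect only how these samples vary, which may be technical. No batch or date is labelled. The members, lists and tests were chosen with earlier results of these data known. Alternatives were other scalings, filters, tools, copies and sets of libraries.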

Additional observations from a re-analysis of the deposited data

Results flagged for a closer look

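In 7 of 30 groups of 5 libraries (6 members at 5 ages) 1 library lay far from the other 4, its gap to the next taking up over 0.71 of the group's range, whereas chance flags about 1 in 20 independent groups of normal values. These groups are not independent, since the 6 members share libraries. All 7 were 6-month replicate 2 or 12-month replicate 4. In the former these were miR-133b at 52.5 CPM (next 19.8), miR-133c at 26.2 (next 5.12), miR-206 at 55.1 (next 12.3) and miR-499 at 123 (next 28.6). In the latter they were miR-133c at 14.3 CPM (next 1.66), miR-206 at 36.2 (next 1.95) and miR-499 at 148 (next 18.3). miR-1 and miR-133a were flagged at no age, although miR-133a in 6-month replicate 2 (1919 CPM, next 1233) fell only just short of the limit. The other miRNAs that are high in these libraries are given with the results, and their part was not tested.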

How the results depend on the processing

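Depth limits miR-133c and miR-206, which hold few reads in most libraries. Age follows line, and no batch is labelled. Of 6 members called for any difference between the ages (2 with the settings of the report), no filter gave 1, and a mean of at least 10 CPM (which removes miR-133c and miR-206), limma-voom, leaving out the 7 libraries rich in epithelium or skin miRNAs and leaving out the 2 libraries that stand apart (added after seeing the data) each gave 0, while library totals and DESeq2 gave 3. The call of miR-133a was lost with no filter (adjusted p 0.0687), the 10 CPM minimum (0.0583) and limma-voom (0.0688). In edgeR with DESeq2's size factors or with the highest hairpin copy only, 2 were called. There miR-133a was lost (0.0515 and 0.0989) and miR-206 gained (0.04995 and 0.0315). For the trend (3) limma-voom gave 2 (miR-206 lost, adjusted p 0.0831), and library totals, DESeq2 and log2 of age gave 4 (miR-133b gained, adjusted p 0.0332, 0.0380 and 0.0400); the 10 CPM minimum gave 1, without the 7 libraries 0, without the 2 libraries 1, a fit that dropped the 6-month libraries 1 and one that dropped the 42-month libraries 0. At 24 against 6 months (1, miR-133c) limma-voom and both sets of libraries left out each gave 0. The 10 CPM minimum and a fit of only the 10 libraries also gave 0, but miR-133c was not among the miRNAs tested there. At 36 against 6 months (0) DESeq2 gave 2, though it gave no p for miR-499 between ages. At 42 against 6 months (2) the 10 CPM minimum gave 0, limma-voom 1, library totals 3, without the 7 libraries 0 and without the 2 libraries 1. Leaving out 1 library at a time gave 1 to 3 for any difference, 1 to 4 for the trend, 0 to 3 at 12, 0 to 1 at 24, 0 to 2 at 36 and 0 to 4 at 42 against 6 months. The relations with miR-1 that passed numbered 5 with all libraries, 0 without the 7, 1 without the 2 and 4 with TMM scaling.

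Without the 7 libraries these changes had the other sign: the trend of miR-133b (0.0317) and miR-499 (0.29), miR-133b at 12 months (0.0622), all 6 at 24 months (miR-1 0.0890, miR-133a 0.21, miR-133b 0.47, miR-133c 0.0529, miR-206 0.57, miR-499 0.21), 5 at 36 months (miR-133a 0.00414, miR-133b 0.27, miR-133c 0.21, miR-206 0.0530, miR-499 0.28) and miR-133b (0.18) and miR-499 (0.71) at 42 months. Without the 2 libraries the same held for miR-499 in the trend (0.15) and at 42 months (0.33), and for miR-1 (0.16), miR-133a (0.0553) and miR-133b (0.12) at 24 months. With the 10 CPM minimum miR-499 at 12 months was 0.00379. Leaving out 1 library at a time, changes at 12 months ran from -0.21 to 0.0515 for miR-1, -0.0657 to 0.25 for miR-133a, -0.76 to 0.25 for miR-133b, -3.16 to 0.43 for miR-133c, -3.23 to 0.69 for miR-206 and -1.57 to 0.98 for miR-499. At 24 months they ran from -0.10 to 0.17 for miR-1, -0.23 to 0.0589 for miR-133a and -0.70 to 0.12 for miR-133b, and at 42 months from -0.89 to 0.33 for miR-499. Apart from fewer samples or miRNAs in some of these fits, the cause was not tested. The trend of miR-133a was called in all 25 fits that left out 1 library (adjusted p 0.00350 to 0.0310). Scaling by library totals moved the median change of all miRNAs at 24 months from 0.04 to -0.14 and their calls from 27 higher and 36 lower to 8 and 54, at 36 months from 16 and 15 to 12 and 26, at 42 months from 28 and 42 to 16 and 52, for the trend from 15 and 27 to 10 and 38, and at 12 months from 14 and 14 to 11 and 18. No paired analysis was possible because the replicate numbers only follow the order of deposit and the labels share no number between ages.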

Other observations

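The miRNAs most like miR-206 alone, by r of age-centred log2 CPM over the 25 libraries, were miR-27a (0.809), miR-27c (0.788), miR-23a (0.750), miR-214 (0.71) and miR-199 (0.706). This ranking was added after seeing the data. Without 6-month replicate 2 and 12-month replicate 4 the values were 0.460, 0.442, 0.398, 0.399 and 0.414. The mesenchymal miR-199 was at 3206 and 3767 CPM in these libraries, against a median of 671 in the other 23, and miR-214 at 98.9 and 101.7 against 22.03.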
